A study of Mus musculus with 15 samples.

Results

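Exc_8 is one of the 26 fine clusters into which the excitatory neurons of the mouse prefrontal cortex (PFC) were divided in the deposited cell annotation. Its members were taken as every cell that carries the cluster name Exc_8 in that annotation, 772 of 35360 cells and 772 of 20377 excitatory cells. The cells came from 15 droplet single-cell RNA-seq libraries of male C57BL/6N mice, of which 622 Exc_8 cells were from the 12 adult (P60) libraries and 150 from the 3 juvenile (P21) libraries. Each P60 library pooled the PFC of 2 mice. The methods give fewer P21 mice than 3 libraries of 2 mice each would need. How many mice stand behind each P21 library is therefore uncertain, and the 3 P21 libraries may share animals. The p-values of the age comparisons thus measure the spread between libraries. The adult mice were labelled as 8 to 10 weeks old and had been given saline or cocaine by intravenous self-administration, so that catheter surgery, food restriction and lever training were common to all P60 groups. Of each treatment, 2 libraries were taken during drug taking (maintenance), 2 after 48 h and 2 after 15 days of withdrawal. The P21 mice, labelled as 3 weeks old, carried no treatment label. The tissue tag of all samples reads NAc while their titles and source name the PFC, and the layer genes described below are those of cortex. P21 cells had received their cluster names from their correlation with the P60 clusters, so cluster names at P21 are transferred ones.

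Excitatory neurons of the cortex release glutamate and are arranged in layers whose cells differ in their targets. Neurons of the upper layers mostly connect cortical areas with each other and carry the homeodomain factor Cux2, whereas deep-layer neurons project out of the cortex and carry factors such as Fezf2, Bcl11b or Foxp2. The PFC of rodents is known for a thin or absent granular layer 4, and it continues to mature between weaning and adulthood.

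Exc_8 was found in every library, with 7 to 144 cells at P60 and 44 to 56 at P21. At P60 it made up 2.18% to 5.50% of a library's excitatory cells, with a pooled share of 4.31% (622 of 14443), and it was the 9th largest excitatory cluster. At P21 the shares of replicates 1, 2 and 3 were 2.26%, 2.84% and 2.63%, the pooled share was 2.53% (150 of 5934), and the rank was 17th. The 6 saline P60 libraries had a mean share of 3.96% ± 1.17 (SD, n = 6) against 2.57% ± 0.295 (n = 3) at P21. This difference of 1.39 percentage points was not larger than the spread between libraries by a two-sided exact permutation test (p = 0.107 over 84 splits, the smallest possible p being 0.0119). That p depended on 1 library, the first saline maintenance replicate with only 7 Exc_8 cells, without which the difference was 1.75 points (exact permutation p = 0.0357). The cocaine libraries had a share of 3.93% ± 1.21 (n = 6), and their difference from saline within time points, -0.0298 points, was far inside the spread (two-sided exact permutation p = 0.972 over 216 arrangements).

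**Figure D1:**
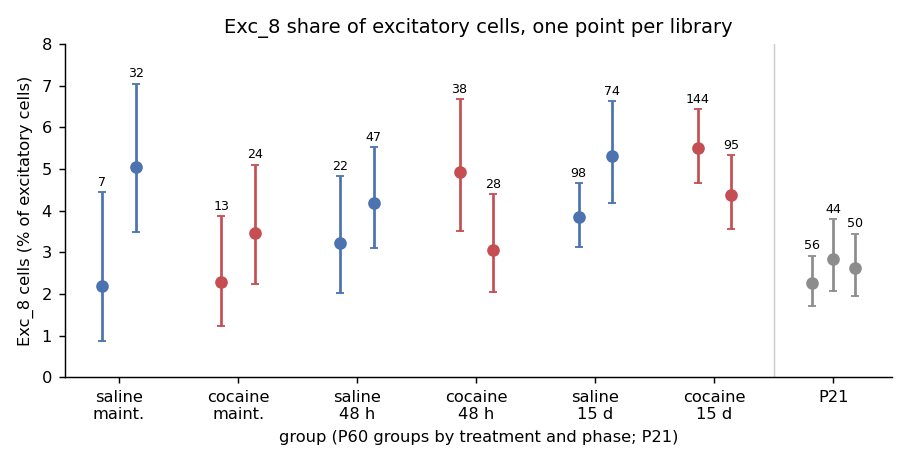
Exc_8 cells as a percentage of all excitatory cells, 1 point per library, by treatment and phase at P60 (saline blue, cocaine red) and at P21 (grey); bars are exact 95% binomial intervals for counting error and the number above each point is its count of Exc_8 cells. The P21 shares lie between 2.26% and 2.84%, within the range of the P60 libraries.

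An Exc_8 cell held a median of 14157.5 UMIs and 4032 genes at P60 and of 11284 UMIs and 3621.5 genes at P21, where 1 UMI is 1 captured RNA molecule. The library medians of the saline P60 libraries (13580 to 15823 UMIs) all lay above those of the P21 libraries (9909.5 to 13022.5), a difference of 3278 UMIs (two-sided exact permutation p = 0.0119, the smallest that 84 splits allow). Levels below are therefore given as CPM, UMIs of a gene per 1000000 UMIs of Exc_8 cells in a library, after leaving out mitochondrial and ribosomal protein genes. The first saline maintenance replicate, with 7 cells, was left out of all gene comparisons. This left 11 P60 libraries (5 saline, 6 cocaine) with 191632 to 1951289 Exc_8 UMIs each, and 3 P21 libraries with 498874 to 734059. No cell barcode of Exc_8 occurred in more than 1 library. All 622 P60 cells were classed as excitatory in the deposited annotation, while 6 of the 150 P21 cells were classed otherwise (3 oligodendrocyte precursor, 2 endothelial, 1 inhibitory).

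The excitatory identity of Exc_8 was plain in the counts. As the authors had classed the cells by such markers in these same counts, the levels that follow are a description. Slc17a7, the vesicular glutamate transporter, stood at 293 ± 37.1 CPM (SD, n = 11) at P60, Camk2a, a calcium-dependent kinase of excitatory synapses, at 461 ± 55.2 CPM, and Neurod6, a factor of pyramidal neurons, at 530 ± 102 CPM. Of the inhibitory markers, Lhx6 had no UMI and Gad1 stood at 0.95 ± 1.36 CPM. The 9 inhibitory markers together summed to 17.3 CPM in Exc_8 (0 to 34.4) and to 14106 to 32527 CPM in the libraries' inhibitory neurons. The 6 astrocyte markers summed to 8.07 CPM (0 to 19.2), and the 7 microglia markers to 2.54 to 30.5 CPM. The sums were larger for the 8 oligodendrocyte markers, at 105 CPM (50.7 to 139), and the 6 endothelial markers, at 574 CPM (440 to 796). Of these 6 endothelial markers, 5 stood under 10 CPM.

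Cux2, at chr5:122308396-122500111 on the minus strand of NCBIM37 (mm9), was measured in Exc_8 at 57.1 to 131 CPM in the 11 P60 libraries, with a median of 99.6. Its mean of 97.9 ± 23.7 CPM was the 8th highest of the 26 clusters, against a median of 19.9 CPM over the other 25 clusters and a maximum of 238 CPM in Exc_6. The neighbours in that order did not differ from Exc_8 beyond their spread, with 107 ± 19.9 CPM in Exc_17, 102 ± 27.7 in Exc_5 and 83.5 ± 15.7 in Exc_4. When every cell was thinned to 2000 UMIs, 18.0% of Exc_8 cells (112 of 622) had a Cux2 UMI, against 0.731% of endothelial cells, which should lack it. Before thinning the shares were 64.8% and 1.63%, at median depths of 13028.5 and 3871 UMIs. Cux2 RNA was thus present in Exc_8, though other clusters had more. As clusters were made from these same counts, its presence is a description.

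Other upper-layer genes were at middle to high ranks in Exc_8. Calb1, which encodes the calcium buffer calbindin, stood at 138 ± 52.6 CPM and ranked 7th, below 247 CPM or more in the 6 clusters ahead of it and level with Exc_10 (133 ± 42.7). Lamp5 (listed as 6330527O06Rik), a membrane protein of the lysosome-associated family, stood at 172 ± 36.7 CPM and ranked 10th, next to 203 ± 53.9 in Exc_10. Enpp2, the enzyme that makes lysophosphatidic acid, was at 200 ± 29.9 CPM against a median of 61.7 in the other clusters, and Rasgrf2, a calcium-regulated activator of Ras, at 96.2 ± 19.5 CPM against 36.5. By contrast Wfs1, an endoplasmic reticulum protein that reached 373 CPM in Exc_2, was at only 18.2 ± 7.31 CPM in Exc_8.

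Exc_8 also carried Rorb, a nuclear receptor used as a layer 4 marker, at 108 ± 24.4 CPM (79.5 to 150). It ranked 6th of 26 for this gene, between Exc_17 (116 ± 27.9) and Exc_24 (93.9 ± 30.7), while Exc_10 stood at 291 ± 37.3 CPM. The layer 4 ion channel gene Scnn1a was nearly absent, with 0.0758 CPM, as it was in all excitatory clusters (at most 3.55).

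Of 7 layer 5 genes 5 were below the median of the other clusters, as were 5 of 7 layer 6 genes, and 6 and 7 of them stood under 10 CPM. Deptor, an mTOR-binding protein (19.7 against 16.3 CPM), Pou3f1, a POU-domain factor (7.26 against 1.18), and Oprk1, the kappa opioid receptor (5.33 against 0.576), were above it. Bcl11b was lower in Exc_8 than in any other cluster, at 1.38 ± 2.79 CPM against a median of 12.0, and Etv1 was the second lowest of 26 at 5.87 ± 4.30 CPM against 40.2. Fezf2 stood at 8.44 ± 5.26 CPM, with a UMI in 9.81% of Exc_8 cells, or 1.77% after thinning to 2000 UMIs against 0.281% of endothelial cells. The layer 6 genes Syt6, Ctgf and Nxph4 had no UMI in any of the 11 P60 libraries. For Syt6, 0 of 622 cells allows a share of up to 0.591% of cells with a UMI (exact 95% binomial interval, counting error only).

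**Figure D2:**
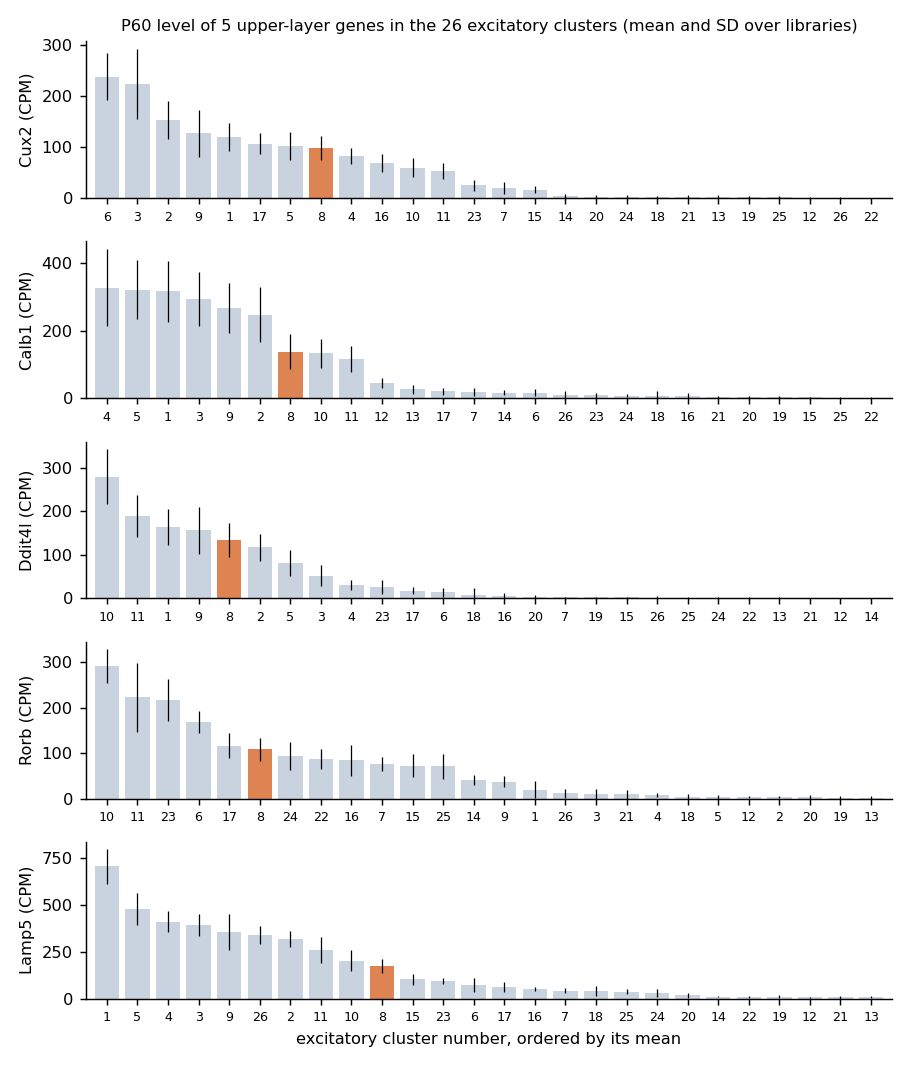
Mean level in CPM, with SD over libraries, of Cux2, Calb1, Ddit4l, Rorb and Lamp5 in each of the 26 excitatory clusters at P60, ordered from high to low, with Exc_8 in orange. Exc_8 ranks 8th for Cux2, 7th for Calb1, 5th for Ddit4l, 6th for Rorb and 10th for Lamp5, and is the highest for none of them.

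No gene set Exc_8 apart by itself. Of 5843 genes with at least 20 CPM in Exc_8, 109 had their highest cluster mean there, against 93 to 1033 genes for the other clusters, and the largest ratio to the next cluster was 1.20 (Larp6, a RNA-binding protein that binds collagen messages). Clusters were defined from these genes, so this and the ratios that follow are descriptions without a test. The 15 genes with the highest ratio of the Exc_8 mean to the median of the other clusters were Ddit4l, Gm12371, Tcap, Ctxn3, Calb1, Slc22a4, Cited1, Gpr83, Abi3bp, Cux2, 1190003J15Rik, Fam5c, Rprm, 6330406I15Rik and Zfhx4.

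Ddit4l, which encodes an inhibitor of mTORC1 signalling and lies at chr3:137284576-137291297 (plus strand), headed this list with 135 ± 38.5 CPM against a median of 6.29 CPM. In the 11 libraries it ranged from 60.2 to 189 CPM. It was as high or higher in Exc_10 (280), Exc_11 (189), Exc_1 (165) and Exc_9 (156), and its share of cells is not informative because 19.4% of endothelial cells also had a UMI after thinning. Slc22a4, a transporter of organic cations and ergothioneine, was the only one of the 15 whose mean was highest in Exc_8, at 30.2 ± 10.2 CPM against a median of 4.66. Its lead over Exc_17 (27.4 CPM) was smaller than the spread between libraries. Gpr83, a G protein-coupled receptor, stood at 135 ± 23.1 CPM against 22.5, Rprm, a cell cycle arrest protein, at 134 ± 41.2 against 31.9, and Tcap, known as a titin-capping protein of muscle, at 89.3 ± 37.0 against 7.20. Abi3bp, an extracellular matrix protein, stood at 35.8 ± 7.34 CPM against 6.49.

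Over 9776 genes, the mean P60 profile of Exc_8 was most like those of Exc_17 (Pearson r = 0.984 on log2(CPM + 1), across genes), Exc_9 (0.982) and Exc_11 (0.978). These profiles share their libraries, and genes are not independent. Exc_17 had slightly more Cux2 (107 against 97.9 CPM) and Gpr83 (141 against 135 CPM) than Exc_8, within the spread between libraries, but little Ddit4l (18.3 CPM) and Calb1 (20.3), both of which were higher in Exc_8 in 9 of the 9 libraries with enough cells of both clusters. Conversely Fezf2 stood at 35.3 CPM in Exc_17, and Exc_8 was lower in all 9 libraries. Cdh13, a cadherin, stood at 41.5 CPM in Exc_17 against 10.4 in Exc_8, and Scn7a, a sodium channel relative, at 30.7 against 6.51.

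Exc_9 shared Ddit4l and carried more Calb1 than Exc_8 (266 against 138 CPM). It held less of the activity-induced factor Npas4 (21.9 against 69.2 CPM) and of Slc22a4 (8.28 against 30.2), both of which were higher in Exc_8 in 11 of 11 libraries. Cplx2, a complexin that acts in vesicle release, stood at 47.0 ± 12.4 CPM in Exc_8 and 216 CPM in Exc_9. Igfbp4, a binding protein of insulin-like growth factors, was nearly missing from adult Exc_8 at 0.424 CPM, the lowest of the 26 clusters together with Exc_17, and stood at 22.0 CPM in Exc_9.

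The difference from Exc_11 was marked by Grp, which encodes gastrin-releasing peptide. Grp ranged from 67.7 to 328 CPM in Exc_8 with a mean of 212 ± 66.7, and averaged 9.15 CPM in Exc_11, with Exc_8 higher in 10 of 10 libraries. Pcdh17, a protocadherin, stood at 117 CPM in Exc_8 against 23.9, and Ramp3, a partner of calcitonin-family receptors, at 30.6 against 1.12. Tshz2, a zinc finger factor, ran the other way with 3.89 CPM in Exc_8 and 96.7 in Exc_11, as did Incenp, a chromosomal passenger protein, with 19.6 against 136. Hemoglobin messages (Hba-a1, Hba-a2) also met the rule for naming genes against Exc_9 and Exc_17, but they ran from 0 to 203 CPM among the Exc_8 libraries and were not higher in all of them.

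At P21 the mean profile of the cluster correlated best with that of P60 Exc_8 (r = 0.960) and next with P60 Exc_10 (0.955), although the names had been transferred by correlation in the first place. The P21 clusters most like it were Exc_9 (0.967) and Exc_16 (0.966), with Exc_17 at the 4th place and Exc_11 at the 18th. Exc_11 held only 45 cells at P21, with enough of them in 2 libraries. The P60 profile of Exc_11 ranked 5th in likeness to P21 Exc_8 (0.948). Cux2 stood at 126 ± 12.7 CPM (n = 3), rank 7, Ddit4l at 154 ± 20.2 CPM, rank 2, Gpr83 at 64.8 ± 23.0 CPM and Rorb at 130 ± 7.37 CPM, rank 5. After thinning to 2000 UMIs, 24.0% of P21 Exc_8 cells had a Cux2 UMI.

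The age comparison set the 5 saline P60 libraries against the 3 P21 libraries and asked which genes of these neurons change over adolescence. No library holds both ages, so age and library preparation cannot be told apart. The P60 mice had also undergone catheter surgery, food restriction, lever training and saline self-administration, while the P21 mice carried no treatment label. Age cannot be told apart from these either. One set of genes has to be described first, because it differed between adult libraries as much as between ages. Cox5a, a subunit of cytochrome c oxidase, stood in Exc_8 at 89.2 to 175 CPM in 4 of the 5 saline libraries and at 296 CPM in the second saline 15 day replicate. It stood at 674 and 512 CPM in the 2 cocaine 15 day libraries and at 1171, 524 and 444 CPM at P21. In the same libraries the other excitatory cells had Cox5a at 710 and 637 CPM (cocaine 15 days) and at 1246, 516 and 436 CPM (P21). Atxn7l3b, Tomm20, a mitochondrial import receptor, and Pfn1, which encodes the actin-binding protein profilin, varied between libraries in the same way. Atxn7l3b, for example, stood at 499 and 456 CPM in the cocaine 15 day libraries and 127 to 242 CPM in the saline ones. These genes were picked after their values were seen, and what sets these libraries apart was not tested.

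**Figure D3:**
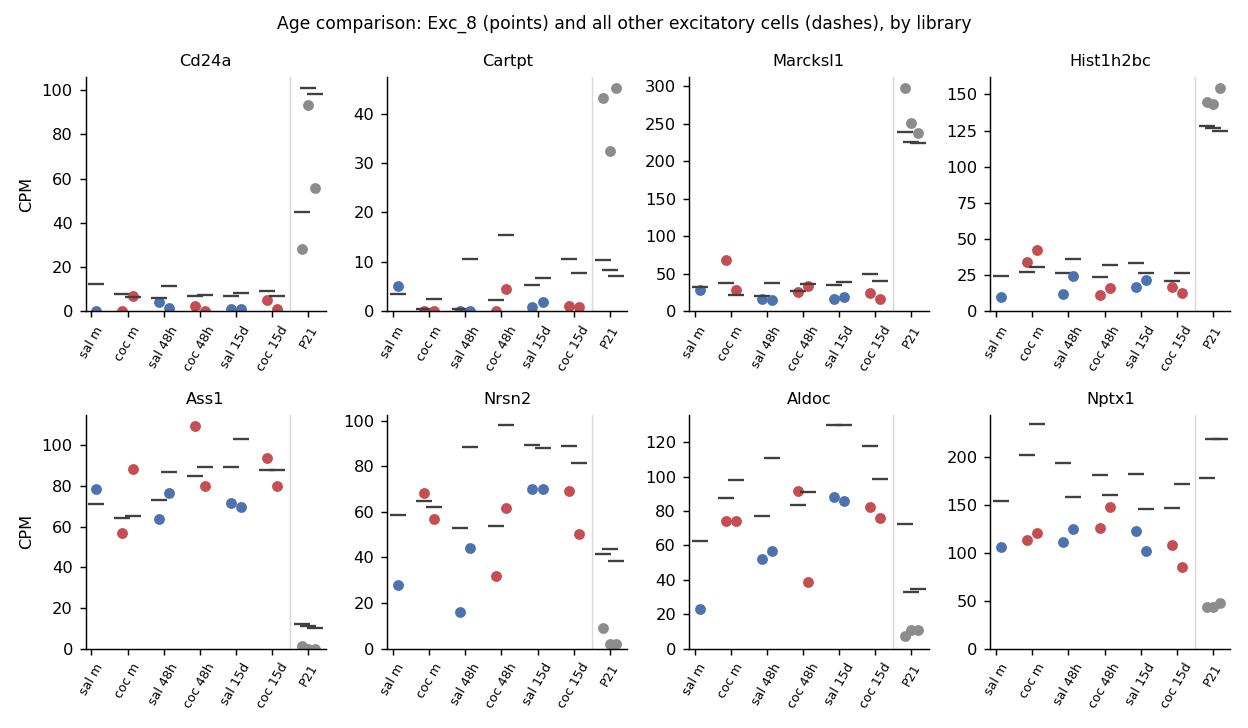
CPM of 8 genes in Exc_8 (points; saline blue, cocaine red, P21 grey) and in all other excitatory cells of the same library (dashes), 1 point per library with at least 10 Exc_8 cells, by group (m, maintenance). Cd24a, Cartpt, Marcksl1 and Hist1h2bc lie above every P60 library in each P21 library, Ass1, Nrsn2, Aldoc and Nptx1 below. The dashes show a smaller fall of Cartpt and no rise of Nptx1 in the other excitatory cells.

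Of 6617 genes with enough counts, 747 (11.3%) differed between the ages by more than 1.5-fold at an adjusted p under 0.05 (edgeR quasi-likelihood test, Benjamini-Hochberg). At P60, 294 (4.44%) were higher and 453 (6.85%) lower. DESeq2 called 534. In 255 of the higher and 386 of the lower genes the saline and P21 libraries did not overlap (3.85% and 5.83% of all genes), and in 162 and 208 of them no cocaine library overlapped the P21 range either (2.45% and 3.14%). When the 2 cocaine 15 day libraries took the place of the saline ones, a comparison chosen after the data were seen, 327 genes were called, as against 344 with the 2 saline 15 day libraries alone. The shares of all genes given beside the lists below belong to the fit that called 747. They are no background for list counts from these smaller fits.

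Ass1, argininosuccinate synthase, which makes the precursor of arginine, showed the largest rise (chr2:31325727-31376192, plus strand). At P60 it stood at 78.6, 63.7, 76.4, 71.7 and 69.8 CPM in the saline libraries (maintenance, 48 h, 48 h, 15 days, 15 days), and at P21 at 1.49, 0 and 0 CPM. The P21 value is a single UMI, against 254 at P60, so that the ratio of the summed counts is 115 with an exact 95% interval of 20.5 to 4579. All P60 libraries lay far above all P21 libraries (fitted log2 fold change 6.48 ± 0.48 SE, edgeR adjusted p = 3.56e-10).

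Nrsn2, a vesicle membrane protein of neurons, rose from 8.94, 2.17 and 2.15 CPM at P21 to 15.9 to 70.0 CPM in the saline libraries (log2 fold change 3.38 ± 0.55 SE, edgeR adjusted p = 0.000804). Aldoc, a glycolytic aldolase, rose from 7.45, 10.8 and 10.7 CPM to 22.8 to 88.4 CPM (2.83 ± 0.41, adjusted p = 0.000182 by edgeR). Neither overlapped between ages. The other 7 of the 10 largest rises were those of Hsf4, a heat shock factor, Ccdc113, Myl6b, a myosin light chain, 4922502B01Rik, Abi3bp, Rnf207 and Cdkn1c, the cell cycle inhibitor p57, with log2 fold changes of 3.14 down to 2.07. Hsf4 had only 3 UMIs at P21, and the ratio of its summed counts was 9.55 (exact 95% interval 3.12 to 47.5). Abi3bp, 1 of the 15 leading genes of adult Exc_8, stood at 7.51 ± 3.20 CPM at P21 and 33.0 ± 7.65 at P60.

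Cd24a, a surface glycoprotein of immature neurons (chr10:43298975-43304068, plus strand), showed the largest fall. It stood at 28.3, 93.2 and 55.8 CPM at P21 and at 0 to 3.98 CPM in the saline P60 libraries (log2 fold change -5.39 ± 0.52 SE, edgeR adjusted p = 1.38e-07). A Cd24a UMI was present in 33.3% of P21 cells and 2.09% of P60 cells, and in 12.0% and 0.482% after thinning to 2000 UMIs. Endothelial cells, which are not free of this gene, had it in 7.26% of cells at P60.

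Cartpt, which encodes the CART neuropeptide, also made by some interneurons (chr13:100668439-100670638, minus strand), stood at 43.2, 32.5 and 45.1 CPM at P21 and at 5.07, 0, 0, 0.834 and 1.97 CPM in the saline libraries (-4.64 ± 0.49, edgeR adjusted p = 3.14e-07). The P21 signal came from 24 of 150 cells (16.0%), and at P60 from 9 of 622 (1.45%). After thinning the shares were 5.33% (8 of 150) and 0 of 622, which allows up to 0.591%, against 0.141% of endothelial cells at P60. Marcksl1, an actin-binding substrate of protein kinase C, fell from 298, 251 and 238 CPM to 15.3 to 27.9 CPM (-3.79 ± 0.19, edgeR adjusted p = 3.29e-14). Hist1h2bc, a replication-type histone H2B gene, fell from 144, 143 and 155 CPM to 10.1 to 24.4 CPM (-2.97 ± 0.21, edgeR adjusted p = 1.02e-10). The other 6 of the 10 largest falls were those of Npnt, an extracellular matrix protein, Ier2, Nrip3, Rasl11a, a small GTPase, Ucn, the stress peptide urocortin, and Barx2, a homeodomain factor, with log2 fold changes of -3.15 to -2.57. With the cocaine 15 day libraries in place of the saline ones, 18 of these 20 genes had enough counts and all 18 remained called.

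Of 20 genes of axon growth with enough counts, 9 fell and none rose, where 6.85% of all genes fell, and their median log2 fold change was -0.436 against 0.007 over all genes tested. The summed level of the list overlapped between the ages, with 25391 to 27153 CPM in the saline libraries and 24656 to 30856 CPM at P21. Besides Cd24a and Marcksl1, the genes that fell were Gap43, the growth-associated protein, Marcks, Stmn2, a tubulin-binding stathmin, Dpysl2 and Crmp1, collapsin response mediators, Sox4, a factor of newborn neurons, and Nrep. Gap43 went from 858, 1638 and 1406 CPM at P21 to 713 to 857 in the saline libraries, so that its first P21 replicate was close to the adult values (-0.70 ± 0.14 SE, edgeR adjusted p = 0.00253). Stmn2 went from 1786, 2436 and 2394 CPM to 995 to 1556 (-0.77 ± 0.12, edgeR adjusted p = 0.000117). The remaining 11, among them Tmsb10 at 1212 CPM at P21 and 1328 CPM at P60, did not pass the test. With the cocaine 15 day libraries 7 of 20 fell, Dpysl2 no longer among them (log2 fold change -0.58).

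Of 14 immediate early genes, which neurons switch on within minutes of activity, 7 fell and none rose with a median of -0.79, where 6.85% of all genes fell. Junb stood at 325, 308 and 281 CPM at P21 and 22.9 to 95.4 CPM in the saline libraries (-2.42 ± 0.36, edgeR adjusted p = 0.00465). Egr1 fell from 404 ± 89.1 to 195 ± 27.9 CPM, Nr4a1 from 81.9, 128 and 170 CPM to 18.3 to 44.2 CPM, and Dusp1, Dusp6, Ier2 and Homer1 fell too. With the cocaine 15 day libraries in place of the saline ones, 6 of 15 fell. In the other excitatory cells the list summed to 1499 to 1606 CPM at P21 and to 660 to 927 CPM in the saline libraries. Endothelial cells held 13771 to 22719 CPM of it, so the list is not particular to neurons. The mitochondrial share of UMIs moved with age as well, with library medians of 1.81% to 1.96% in the 5 saline libraries and 2.38% to 2.92% at P21, and its part in these falls was not tested.

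Calb1 was the only one of 8 upper-layer genes to pass the test, where 11.3% of all genes did. It stood at 426, 329 and 408 CPM at P21 and at 129, 59.8, 108, 106 and 162 CPM in the saline libraries, with no overlap (-1.69 ± 0.18 SE, edgeR adjusted p = 9.84e-06). The share of cells with a Calb1 UMI was 91.3% at P21 and 68.0% at P60, or 56.0% and 24.6% after thinning, against 1.01% of endothelial cells at P60. Cux2 (126 ± 12.7 CPM at P21, 99.1 ± 24.6 at P60 saline) did not pass the test. Of 7 general excitatory markers 1 rose and 1 fell, where 4.44% and 6.85% of all genes did. The rise was that of Snap25, a SNARE protein of vesicle release, from 2803 ± 91.1 to 4314 ± 507 CPM.

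In the lists of synapse and channel genes that follow, the counts of called genes stand against 11.3% called over all genes. Nptx1, a pentraxin that gathers AMPA receptors, rose from 43.2, 43.3 and 47.2 CPM to 107, 112, 125, 123 and 102 CPM (1.38 ± 0.18, edgeR adjusted p = 1.19e-05), the only one of 10 peptide and growth factor genes called. Of 12 glutamate receptor genes, Gria1, an AMPA receptor subunit, rose (94.0 ± 13.5 to 141 ± 15.4 CPM) and Grin3a, a modulatory NMDA receptor subunit, fell (35.9 ± 2.72 to 19.5 ± 10.4). Of 11 GABA-A receptor genes only Gabra3 was called, a rise from 39.2 to 61.3 CPM. Of 24 potassium channel genes, Kcnip3, a calcium-binding channel partner also known as DREAM, rose (30.4 to 66.2 CPM) and Kcnk1, a leak channel, fell (106 to 56.5 CPM). Of 16 sodium and calcium channel genes Cacna2d3 fell.

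Of 18 synaptic vesicle genes Snap25 rose and Syt13 fell, and of 22 synaptic adhesion genes Nlgn3, Cadm1 and Cadm2 fell. The fall of Cadm1 (log2 -1.23) did not hold with the cocaine 15 day libraries, against which it was 0.18. Nlgn3 was not called against these or the saline 15 day libraries alone, so that 1 of 24 adhesion genes, Cadm2, was lower in either. Of 21 calcium and calmodulin genes, Camk4, Ppp3r1, a calcineurin subunit, and Prkca fell and Ncald, a neuronal calcium sensor, rose. Neurofilament genes Nefl and Nefm fell, 2 of the 9 genes of that list. Of 12 cholesterol synthesis genes Fdps (172 to 294 CPM) and Sc4mol (50.6 to 106 CPM) rose. With the cocaine 15 day libraries 1 of 13 genes of this list was called higher, and with the saline 15 day libraries alone 2 were. None of 10 heat shock genes and none of 3 monoamine and acetylcholine signalling genes with enough counts was called, where the background was 11.3%. So few genes cannot show a lack of change. Of the 10 heat shock genes 9 had a log2 fold change above 0, with a median of 0.204 against 0.007 over all genes. That list summed to 11996 to 14073 CPM in the saline libraries and 10859 to 11029 at P21. In the other excitatory cells these ranges were 11905 to 13098 and 9756 to 10235 CPM.

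Of 26 DNA methylation and histone modifier genes 6 were called lower and 2 higher, where over all genes the shares were 6.85% and 4.44%. Dnmt3a, the de novo DNA methyltransferase, stood at 116, 126 and 105 CPM at P21 and 22.8, 47.8, 42.8, 43.4 and 36.4 CPM in the saline libraries (-1.55 ± 0.19 SE, edgeR adjusted p = 3.6e-06), and in the cocaine libraries at 24.8 to 51.2 CPM. Tet3, which oxidizes methylated cytosine, fell from 59.1 ± 12.0 to 28.6 ± 4.32 CPM, and Chd3, a remodeler, from 92.3 ± 11.7 to 44.3 ± 5.16 CPM. Mbd3, Yeats4 and Ube2d3 fell, and Kmt2a (listed as Mll1), a histone H3 lysine 4 methyltransferase, and Prmt1, an arginine methyltransferase, rose. Yeats4 and Ube2d3 were among the genes that stood higher in the cocaine 15 day libraries, and against these their log2 changes of -0.25 and -0.38 were not called. Mbd3 and Prmt1 were not called against them either, which left 3 of 31 genes of this list lower and 1 higher, and with the saline 15 day libraries alone the counts were 3 and 1 of 32. Of 86 oxidative phosphorylation genes 3 were called, with Sdha higher and Cox5a and Uqcrfs1 lower, the last 2 of which were not called against the cocaine 15 day libraries (-0.26 and -0.56). In that comparison 1 of 87 genes of this list was called higher and 2 others lower.

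The summed levels of the markers of other cell types given here overlapped in Exc_8 between the saline and the P21 libraries. Mbp, a myelin protein, was called lower at P60 in Exc_8 (151 ± 93.6 to 42.5 ± 14.0 CPM). It was the only one of 3 oligodendrocyte markers tested to be called, where 6.85% of all genes were called lower. The 8 oligodendrocyte markers summed to 50.7 to 139 CPM in the saline Exc_8 libraries and 97.5 to 307 CPM at P21, against 72498 CPM in adult oligodendrocytes. The 6 endothelial markers, nearly all of it the widely expressed Bsg, summed to 440 to 701 and 520 to 1007 CPM. For the 6 astrocyte markers these ranges were 0 to 19.2 and 4.33 to 10.7 CPM, and for the 7 microglia markers 2.54 to 30.5 and 6.44 to 43.2 CPM. The 9 inhibitory markers summed to 19.3 CPM (5.07 to 34.4) in the saline libraries and 43.0 CPM (34.3 to 60.1) at P21 in Exc_8, and to 64.6 and 172 CPM in the other excitatory cells. The part of this RNA in the age changes, that of Cartpt among them, was not tested. Leaving out the 6 P21 cells classed as other types gave 731 called genes.

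A further question was whether Exc_8 changed with age differently from the excitatory neurons around it. Those neurons were taken as 1 sum over the other 25 clusters, whose mix differed between the ages. Exc_10, for example, held 93 of 5934 excitatory cells at P21 and 1022 of 14443 at P60. The part of this mix in the differences below was not tested. An interaction model with library as a block compared the age change in Exc_8 with that in all other excitatory cells, and called 111 of 12379 genes (0.897%), 46 with a higher (0.372%) and 65 with a lower change in Exc_8 (0.525%). In 34 of the higher (0.275%) and 43 of the lower ones (0.347%) the saline and P21 libraries did not overlap in that difference between the cell groups. DESeq2 called 43. Of the 20 genes named for this difference DESeq2 called 3, Nrsn2, Rorb and S100a6, and gave no adjusted p for 16, among them Cartpt, Barx2, Thsd7a, Cnp and Trf. Against the 3 most alike clusters instead of all others, 190 genes were called, with 15 of the 20 tested and 8 of them called. These clusters were chosen by their likeness at P60 alone, and at P21 Exc_11 ranked only 18th in likeness. Their counts were summed as well, and their mix also differed between the ages. Exc_9, Exc_17 and Exc_11 held 508, 86 and 45 cells at P21 and 425, 423 and 399 in the P60 libraries. Calls and missing calls against these 3 clusters therefore cannot separate levels from mix, here and below. Against all other excitatory cells, 11 of the 20 were called without the first, 10 without the second and 12 without the third P21 replicate. Without the second saline 15 day replicate 11 were called. 1190007F08Rik, Fosl2, Csf1r, Igfbp3 and Inppl1 were called in none of these 4 fits.

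Cartpt headed the lower changes. The other excitatory cells had 8.62 CPM at P21 and 5.30 CPM at P60 saline, whereas Exc_8 went from 40.3 to 1.58 CPM (difference of log2 fold changes -4.33 ± 0.52 SE, edgeR adjusted p = 1.10e-13). Barx2 fell in Exc_8 from 37.2, 62.8 and 58.0 CPM to 0 to 14.2 CPM, and stood at 24.4 and 17.6 CPM in the other cells (-2.29 ± 0.31, edgeR adjusted p = 3.62e-10). Rorb stood at 130 ± 7.37 and 102 ± 29.6 CPM in Exc_8 while the sum of the other excitatory cells rose from 34.0 to 63.9 CPM (-1.49 ± 0.15, edgeR adjusted p = 1.71e-18). Within clusters, Rorb stood at 288 CPM at P21 and 291 over the P60 libraries in Exc_10, and at 216 and 223 in Exc_11. In Exc_23 it stood at 148 and 217 CPM. How much of the Rorb difference comes from the mix of clusters was not tested. Against the 3 most alike clusters the Rorb difference was -2.20 and did not pass the test (edgeR adjusted p = 0.0560). S100a6, a small calcium-binding protein, likewise stood at 180 ± 73.3 and 178 ± 34.0 CPM in Exc_8 and rose from 53.6 to 157 CPM in the others (-1.44 ± 0.13, edgeR adjusted p = 2.00e-23).

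Thsd7a, a thrombospondin-domain membrane protein, fell in Exc_8 from 21.2 to 6.97 CPM and stood at 7.53 and 10.4 CPM in the others (-2.17 ± 0.41). Nrip3 and 1190007F08Rik also had lower changes in Exc_8 (-1.69 and -1.44), of which that of Nrip3 was not called against the 3 most alike clusters (-0.84, edgeR adjusted p = 0.580). Ntf3, the growth factor neurotrophin 3, Igfbp4 and Fosl2, an AP-1 factor, were called as well but rested on few molecules, with 2, 2 and 5 UMIs in the saline libraries and 12, 18 and 20 at P21. For Ntf3 the P21 over P60 ratio of summed counts was 13.2 (exact 95% interval 2.94 to 121), and for Igfbp4 19.8 (4.74 to 176). Against the 3 most alike clusters neither was called, with differences of -0.78 for Ntf3 (edgeR adjusted p = 0.830) and -0.97 for Igfbp4 (0.718).

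Ass1 and Nrsn2 had a higher change in Exc_8 than in the other excitatory cells together. The other cells had Ass1 at 11.1 CPM at P21 and 84.7 at P60 (difference of log2 fold changes 3.81 ± 0.88 SE, edgeR adjusted p = 0.00217), and Nrsn2 at 41.1 and 75.5 CPM (2.45 ± 0.42, edgeR adjusted p = 1.92e-06). Against the 3 most alike clusters neither was called, with differences of 0.91 for Ass1 (edgeR adjusted p = 0.856) and 0.16 for Nrsn2 (0.966), and DESeq2 did not call Ass1 (adjusted p = 0.0631). Nptx1 stood at 179, 219 and 220 CPM at P21 and 146 to 194 CPM at P60 saline in the other excitatory cells, so that its rise in Exc_8 was not seen there (1.63 ± 0.17, edgeR adjusted p = 8.39e-16). Of the axon growth list, Marcksl1 (-1.17) and Cd24a (-2.46) fell further in Exc_8 and Tmsb10 had the higher change there (0.64), although against the 3 most alike clusters the difference for Tmsb10 was -0.44, and those of Marcksl1 (-0.47) and Cd24a (-1.01) were not called. Of the 20 immediate early genes tested Nr4a1 (-0.65) and Fosl2 had lower changes in Exc_8, where 0.525% of all genes did, and Nr4a1 was not called against the 3 most alike clusters (-0.52, edgeR adjusted p = 0.171). Calb1 showed no difference that passed the test (-0.45, edgeR adjusted p = 0.794).

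Glial genes were among the further higher changes relative to the other excitatory cells. Of 6 oligodendrocyte markers tested 3 had a higher change, where 0.372% of all genes did. Cnp, Cldn11 and Mobp, all myelin genes, and Trf, transferrin, had differences of 2.40, 2.24, 1.84 and 2.84. That of Cldn11 was not called against the 3 most alike clusters (edgeR adjusted p = 0.0747), and its level in Exc_8 was 4.41 CPM at P21 and 3.63 at P60. Cnp stood at 48.2 CPM at P21 and 17.4 at P60 in the other cells, and at 10.1 and 22.7 CPM in Exc_8. Trf stood at 14.0 and 6.05 CPM in the other cells, and at 1.99 and 6.92 CPM in Exc_8. The oligodendrocyte markers summed to 447 CPM (316 to 670) in the other excitatory cells at P21 and 109 CPM (59.4 to 164) at P60, against 203 and 86.8 CPM in Exc_8, and the microglia markers to 74.6 and 24.0 CPM against 6.44 to 43.2 and 2.54 to 30.5 CPM. Their part in these calls was not tested. Fa2h, Csf1r, Igfbp3, Inppl1 and Nxph1 were called with no UMI in Exc_8 at P21 and 6 to 15 UMIs in the saline libraries, so no fold is given.

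**Figure D4:**
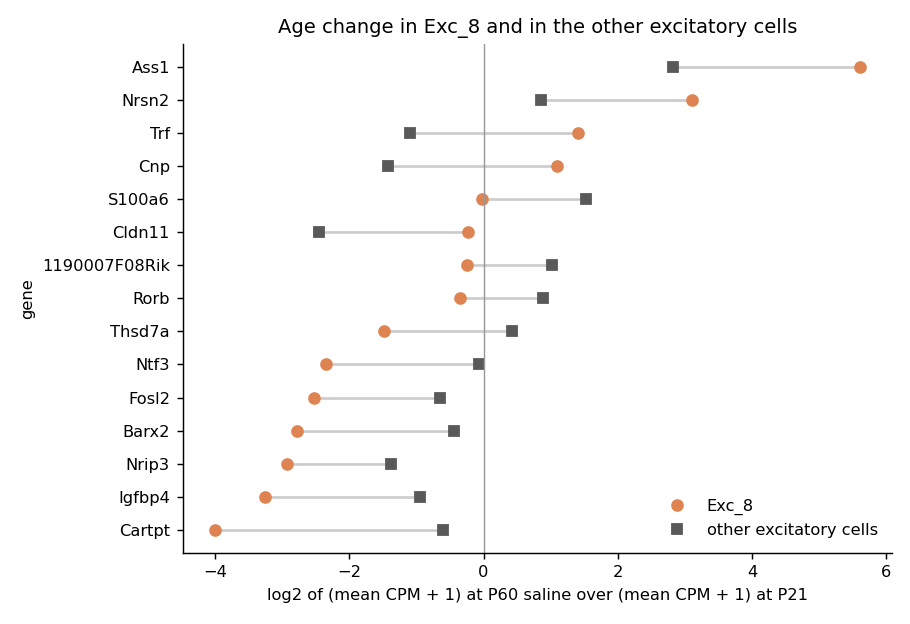
Log2 ratio of mean CPM + 1 at P60 saline over P21 in Exc_8 (orange circles) and in all other excitatory cells (grey squares) for 15 genes. They are those with a UMI at both ages in Exc_8 among the 10 largest higher and 10 largest lower differences of called genes whose libraries did not overlap. For Cartpt, Barx2, Ntf3 and Thsd7a the circle lies far to the left of the square, for Rorb and S100a6 the circle lies near 0 and the square above it, and for Cnp, Trf and Cldn11 the square lies below 0.

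The cocaine comparisons set cocaine against saline libraries at each time point in the 11 P60 libraries, with 7154 genes tested, and asked whether drug taking or withdrawal changes these neurons. All groups were fitted together and shared their estimate of the spread. The only saline maintenance library with enough cells added nothing to it. During maintenance, where only 1 saline library had enough cells, no gene was called by edgeR (0%) or DESeq2, with 553 genes at an unadjusted p under 0.05. After 48 h none was called by either tool (0%), with 370 genes at an unadjusted p under 0.05. Maintenance and 48 h libraries held 13 to 47 Exc_8 cells each, as against 74 to 144 in the 15 day libraries. The simulation was not run for maintenance or 48 h, and at 15 days it recovered 68.0% of genes changed 2-fold. Its counts held no shared differences between libraries.

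After 15 days 124 genes were called (1.73%), 123 of them higher with cocaine (1.72%) and 1 lower (0.014%), and DESeq2 called 18. The 4 libraries decided this number. It was 16 without the first and 66 without the second cocaine replicate, and 42 without the first and 273 without the second saline replicate. Cox5a itself was not called, and how many of the called genes differed between libraries in its manner was not counted. In the other excitatory cells of the same 4 libraries, which are no independent sample of them, the 124 genes had a median log2 fold change of 0.84, against 1.04 in Exc_8. No gene differed between Exc_8 and the other excitatory cells in its change at 15 days (0% called, with 381 genes at an unadjusted p under 0.05 by edgeR; DESeq2 was not run for this difference). Treatment and the state of these 4 libraries cannot be told apart.

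The 5 largest rises were those of Zfp513 and Zfp593, zinc finger genes, Rnf126, a ubiquitin ligase, Fbxl15, a ubiquitin ligase adaptor, and Tmem42. Fbxl15 stood at 52.4 and 43.5 CPM with cocaine and at 4.17 and 18.7 CPM with saline (log2 fold change 2.17 ± 0.36 SE, edgeR adjusted p = 0.000639), and its change in the other excitatory cells was 1.86 ± 0.42 (adjusted p = 0.201 by edgeR). Tmem42 stood at 52.4 and 43.5 against 6.67 and 19.7 CPM (1.95 ± 0.32, edgeR adjusted p = 0.000163) and Rnf126 at 29.0 and 17.1 against 1.67 and 8.85 CPM (2.25 ± 0.53, edgeR adjusted p = 0.0127). In each the second saline replicate was the higher of its pair.

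Of the gene lists 9 genes were called at 15 days, all higher with cocaine, as were 123 of the 124 genes called in all (1.73% of those tested). Calb1 stood at 226 and 230 CPM against 106 and 162 CPM (0.80), while the other excitatory cells stood at 86.4 and 99.2 against 48.8 and 68.3 CPM. Ier2, an immediate early gene, was at 22.3 and 35.0 against 4.17 and 10.8 CPM (1.94), and Nrgn, the calmodulin-binding neurogranin, at 2860 and 2458 against 1110 and 1633 CPM (0.98). Grin2a, an NMDA receptor subunit, stood at 78.0 and 86.2 against 24.2 and 61.0 CPM (1.00), and Ppp1r1b, the dopamine-regulated phosphatase inhibitor DARPP-32, at 50.1 and 41.0 against 11.7 and 30.5 CPM (1.20). The others were Yeats4, Ube2d3, Cyc1 and Uqcrfs1. Each was 1 or 2 genes of its list, such as 1 of 14 immediate early genes and 2 of 87 oxidative phosphorylation genes. The age and the 15 day comparisons share the 2 saline 15 day libraries. Calb1 changed by -1.69 in the first and by 0.80 in the second, and Ier2 by -3.08 and 1.94.

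Over all time points 1 gene was called (0.014%). Rundc3a, a neuronal RUN domain protein at chr11:102254717-102263869 (plus strand), stood with cocaine at 102 and 113 CPM (maintenance), 84.5 and 75.3 (48 h) and 132 and 105 (15 days), and with saline at 35.5, 47.8 and 50.4, and 57.5 and 73.8 CPM. Every cocaine library lay above every saline library (log2 fold change 1.05 ± 0.18 SE, edgeR adjusted p = 0.0026), but the highest saline and the lowest cocaine value were 73.8 and 75.3 CPM. In the other excitatory cells its change was 0.35 ± 0.08 (edgeR adjusted p = 0.232), and the difference between the cell groups did not pass the test (0.70 ± 0.18, edgeR adjusted p = 0.264). DESeq2 called no gene, and 630 had an unadjusted p under 0.05 with edgeR. Without the second cocaine maintenance replicate no gene was called, with a log2 fold change of 1.00 for Rundc3a, and without the second saline 15 day replicate 56 were.

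No gene changed differently between time points (0% called, 425 at an unadjusted p under 0.05 by edgeR), although 66 were called without the second saline 15 day replicate. Compared with the change in the other excitatory cells over all time points, 1 gene was called (0.00728%), Map3k6, a stress-activated kinase, which is outside the rule for named genes and was named after its values were seen. In Exc_8 it stood at 28.5, 49.6, 20.6, 16.0, 25.6 and 13.7 CPM with cocaine and 0, 15.9, 7.64, 14.2 and 13.8 CPM with saline, so the groups overlapped. Since the only saline maintenance library was at 0, no fold is given (edgeR adjusted p = 0.0274). In the other excitatory cells it stood at 12.6 to 18.4 and 11.6 to 18.7 CPM.

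**Figure D5:**
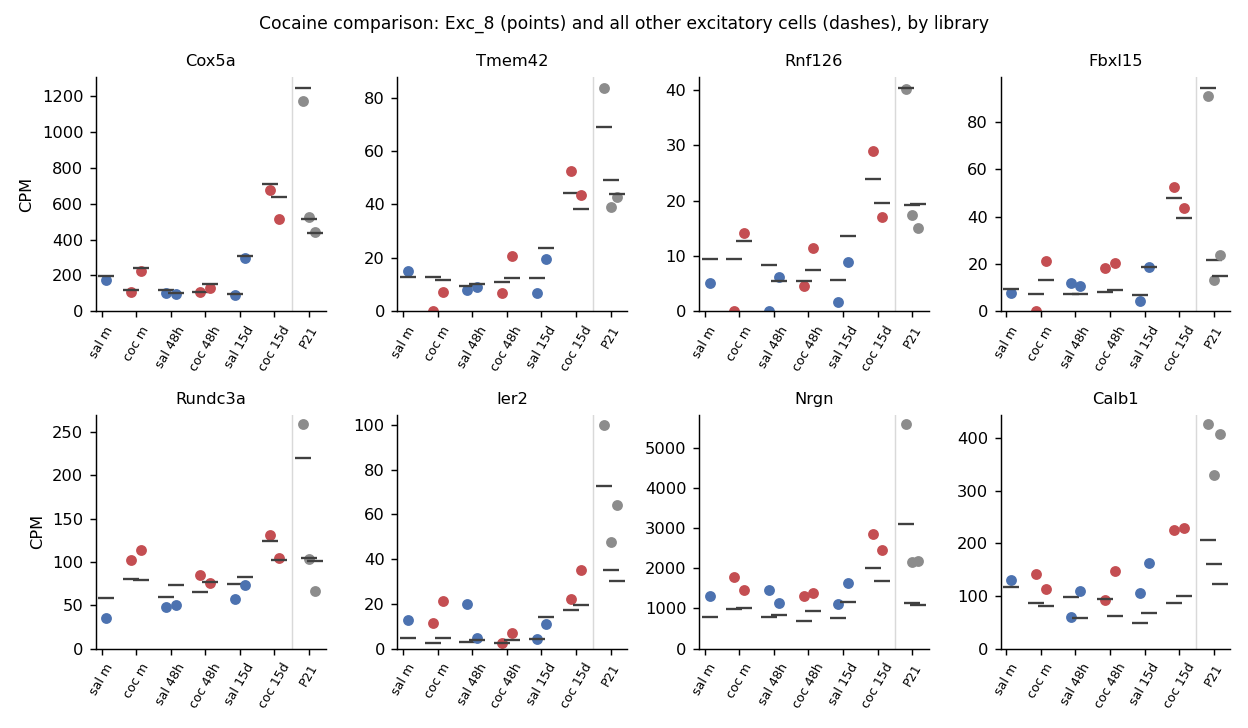
CPM of 8 genes in Exc_8 (points; saline blue, cocaine red, P21 grey) and in all other excitatory cells of the same library (dashes), 1 point per library with at least 10 Exc_8 cells (m, maintenance). In the 2 cocaine 15 day libraries Cox5a, Tmem42, Rnf126 and Fbxl15 stand higher in both cell groups and reach the P21 range, and for Rundc3a every cocaine point lies above every saline point in Exc_8.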

How the data were processed

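The deposited UMI counts (per gene and cell) and the cell annotation of the authors were used, per the labels with reads aligned to mm9 by Cell Ranger and clustered with Seurat. The authors had removed double droplets and cells of low quality, and per the methods had placed P21 cells by correlation with the P60 clusters. The annotation also holds the authors' mitochondrial fraction per cell, which was not used for tests. Counts were summed per library and cluster over 25989 genes, after leaving out 13 mitochondrial and 143 ribosomal protein genes (7.15% to 8.59% of Exc_8 UMIs). Libraries with at least 10 Exc_8 cells entered the tests. edgeR 4.0.16 (R 4.3.3; filterByExpr, TMM, robust quasi-likelihood fit) tested the summed counts, with calls at a Benjamini-Hochberg adjusted p under 0.05 and a change over 1.5-fold. DESeq2 1.42.0 was an alternative. The interaction fits held library as a block. Replicates are libraries, and p-values measure the spread between them. Shares were compared with exact permutation tests (scipy 1.17.1), and intervals cover counting error only. The fits were tested on simulated counts. In these each gene kept the same share of UMIs in all libraries and cell groups, apart from the set changes. They held no differences between cell groups and no shared differences between libraries. The rates below therefore need not hold for the real counts. Of 200 genes changed 2-fold, 64.5% were recovered for age, 68.0% at 15 days, 77.5% for all time points and 44.5% for the age interaction, with 10, 12, 4 and 2 false calls beside 129, 136, 155 and 89 recovered genes. Gene positions are from GENCODE vM1. Counting by strand is not given in the sources used here.

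Named genes were the 10 largest rises and falls for age and its interaction and the 5 largest for cocaine, among called genes whose libraries did not overlap, the 15 leading genes by ratio to the median cluster, the 6 highest and lowest against each of the 3 most alike clusters, and the called genes of 27 lists. A few genes that meet this rule are not reported here. Of the list symbols, 9 were matched through RefSeq synonyms. The members and the lists were chosen with earlier results of these data known.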

Additional observations from a re-analysis of the deposited data

Results flagged for a closer look

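In 4 of 70 sets of 4 or more libraries examined for the genes named above, 1 saline P60 library lay far from the rest by Dixon's criterion, where chance gives about 1 in 20. Hsf4 stood at 10.7 CPM in the second 48 h replicate against 19.2 to 20.3 in the others. The other 3 were all in the second 15 day replicate, with Nefl at 523 CPM, Cadm1 at 355 CPM and Yeats4 at 57.1 CPM, each above the other saline libraries. Cadm1 and Yeats4 were also high in the cocaine 15 day libraries.

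The age change of 111 genes differed between Exc_8 and the other excitatory cells in the interaction test of edgeR. The differences of log2 fold changes in Exc_8 against the others were 3.81 for Ass1, 2.84 for Trf, 2.45 for Nrsn2, 2.40 for Cnp, 2.24 for Cldn11, 1.84 for Mobp, 1.63 for Nptx1, 1.29 for Npy, itself an inhibitory marker, 1.23 for Ppp1r1b and 0.64 for Tmsb10. Against the 3 most alike clusters that of Ppp1r1b was 0.60 and was not called (edgeR adjusted p = 0.586). That of Npy turned to -0.16 there and was not called either (edgeR adjusted p = 0.949). On the lower side they were -4.33 for Cartpt, -3.45 for Ntf3, -3.24 for Igfbp4, -2.46 for Cd24a, -2.42 for Fosl2, -2.29 for Barx2, -2.17 for Thsd7a, -2.06 for Tshz2, -1.69 for Nrip3, -1.49 for Rorb, -1.44 for 1190007F08Rik, -1.44 for S100a6, -1.31 for Whrn, -1.17 for Marcksl1, -0.65 for Nr4a1 and -0.61 for Nrn1. Fa2h, Csf1r, Igfbp3, Inppl1 and Nxph1 had no UMI in P21 Exc_8 cells, and their edgeR adjusted p-values were 0.0166, 0.0268, 0.0181, 0.0280 and 0.0337. For cocaine, the change of Map3k6 differed between Exc_8 and the other excitatory cells (edgeR adjusted p = 0.0274), with the only saline maintenance library at 0 CPM.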

How the results depend on the processing

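The age count of 747 stayed within 1.5 times under DESeq2 (534), all P60 libraries, DESeq2 size factors, no filter, no fold cutoff and leaving out single libraries (571 to 797), and was 437 with equal cells per library, 344 with the saline 15 day and 327 with the cocaine 15 day libraries only. The latter choice, the restriction to cells classed as excitatory, and the cocaine interaction at 15 days only were added after the data were seen. The age interaction gave 190 genes against the 3 most alike clusters, 43 with DESeq2, 192 with no fold cutoff and 81 to 113 without single libraries. At 15 days DESeq2 gave 18 genes, 14 of them among the 124, and leaving out single libraries 16 to 273. With no filter, the counts were 3 at maintenance, 1 at 48 h, 10 over all time points and 16 for the difference between time points. Leaving out single libraries gave 0 to 1 at maintenance, 0 to 56 over all time points, 0 to 66 for the difference between time points and 0 to 4 for the cocaine interaction, which was 0 with DESeq2 and 0 at 15 days only. DESeq2 gave 0 over all time points.

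The age difference in share ran from 1.12 to 1.75 points without single libraries, the highest of these passing the threshold. The cocaine difference in share, which was not called, became 0.071 points over all cells and ran from -0.508 to 0.448 without single libraries. The UMI difference ran from 2546 to 4102.5. Named genes were followed as 112 pairs of a gene and a comparison. Of 1893 values, 1580 kept direction and call, 310 were no longer called and 3 reversed. A further 79 were not tested under the alternative. The reversed values were those of Cadm1 (0.18, cocaine 15 day libraries only) and, against the 3 most alike clusters, Npy (-0.16) and Tmsb10 (-0.44). The causes were not tested. A minimum of 30 cells could not be fitted for maintenance, all time points, the time difference and the cocaine interaction, which lose a group. No paired analysis was possible because replicate numbers follow the order of the samples and the labels pair none. The 7 to 144 cells per library, or 13 to 144 in the gene tests, limit every test, and low-count genes most.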
